A study of Arabidopsis thaliana with 5 samples.

Results

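Genes whose RNA is known to rise in darkness or low sugar, or that shared the pattern of such genes over the arrays, were followed in floral buds of *Arabidopsis thaliana*. The genes are AT2G20670, AT3G15450, AT1G56220 and AT1G30820, 4 of the 13356 genes that have a named probe set here. They were chosen by their signals on these same 5 arrays, so their values are a description and carry no test. The arrays were Affymetrix ATH1, on which a set of short probes measures each transcript, with 3 arrays of the homozygous *ask1* mutant (*ask1*-/-) and 2 arrays of wild-type L*er* analysed here. The mutant was in the L*er* (Landsberg *erecta*) background and lacks the function of ASK1, a subunit of SKP1-CUL1-F-box ubiquitin ligases. All plants were grown on soil, no treatment is named, and clusters of unopened buds of primary inflorescences were taken. The *ask1* plants were picked from the progeny of heterozygous plants by phenotype, which included small size and sterile anthers.

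When photosynthesis stops or sugar runs out, plant cells switch on genes that break down amino acids, cell walls and storage compounds. The switch runs in large part through SnRK1, a protein kinase related to yeast SNF1 and animal AMPK, and through bZIP transcription factors that act with it. Supplying sugar turns the same genes off. AT1G56220 belongs to the dormancy/auxin associated (DRM) family, whose founder was found in resting buds of pea and whose RNA falls when such buds start to grow. AT1G30820 encodes a CTP synthase, which makes CTP from UTP, a building block of RNA and of membrane lipid precursors. AT2G20670 belongs to the DUF506 family, named for a domain of unknown function, and AT3G15450 to the aluminium-induced protein family of *AILP1*. No function is given for either gene in the tables used here.

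The values were log2 signals made with RMA, in which a difference of 1 is a 2-fold difference. The median signal per array lay between 7.07 and 7.18. Signals under 5 on this scale, 22.8% to 24.5% of probe sets per array, were treated as near background. Array pairs correlated between 0.983 and 0.996 across probe sets. The pair *ask1* replicates 1 and 3 stood closest, with 24 probe sets at least 2-fold apart, against 292 for the L*er* pair and 510 and 543 for *ask1* replicate 2 with the other *ask1* arrays. With L*er* replicates 1 and 2 the numbers were 411 and 360 for *ask1* replicate 2. They were 538 and 411 for *ask1* replicate 1, and 503 and 561 for *ask1* replicate 3. Each group value below is therefore also given array by array. None of the 8 floral organ marker genes listed as a check of the tissue, such as *AP1* and *AG*, has a named probe set here, so the tissue label was not checked with them.

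AT2G20670 had the widest span of the 4 genes. Its log2 signal was 4.81 in *ask1* replicate 1, 10.65 in replicate 2 and 5.16 in replicate 3, while L*er* replicates 1 and 2 gave 9.61 and 9.83. Values below follow this order of arrays. The gene was near background in *ask1* replicate 1, just above that limit in *ask1* replicate 3, and above both L*er* arrays in *ask1* replicate 2, so the groups overlapped. Against the L*er* mean it was 30.1-fold lower in *ask1* replicate 1 and 23.6-fold lower in *ask1* replicate 3, and signals this close to background limit those folds. In *ask1* replicate 2 it was 1.90-fold higher. The group means were 6.88 ± 3.28 (SD, n = 3) and 9.72 ± 0.15 (SD, n = 2), a difference of -2.85, which was -4.73 without *ask1* replicate 2 and -1.81 when *ask1* replicate 1 was left out.

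AT3G15450 measured 9.82, 13.11 and 8.62 in the *ask1* arrays, against 13.02 and 13.19 in L*er*. *ask1* replicate 2 fell between the L*er* arrays, and *ask1* replicates 1 and 3 were 9.78-fold and 22.4-fold below the L*er* mean. These low arrays were 1.20 apart on the log2 scale, with the lower value in *ask1* replicate 3. Of all 22589 genes and unnamed probe sets, 24 (0.106%) were at least 2-fold apart between *ask1* replicates 1 and 3, and AT3G15450 was the only 1 of the 4 genes among them. In the other 23 the signal was higher in *ask1* replicate 3. The group means of AT3G15450 were 10.52 ± 2.33 (SD, n = 3) and 13.11 ± 0.12 (SD, n = 2), a difference of -2.59, which was -3.89 without *ask1* replicate 2 and -1.64 when *ask1* replicate 3 was left out.

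AT1G56220 measured 9.26, 11.67 and 8.84 in the *ask1* arrays, against 11.64 and 11.84 in L*er*. Here too *ask1* replicate 2 lay between the L*er* arrays, and the other *ask1* arrays were 5.57-fold and 7.45-fold below the L*er* mean. The means were 9.93 ± 1.52 (SD, n = 3) against 11.74 ± 0.15 (SD, n = 2), a difference of -1.82. This was -2.69 without *ask1* replicate 2 and -1.27 without *ask1* replicate 3.

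The CTP synthase gene AT1G30820 measured 8.82, 11.37 and 8.38 in the *ask1* arrays, against 11.58 and 10.77 in L*er*. *ask1* replicates 1 and 3 were 5.12-fold and 6.94-fold below the L*er* mean, and *ask1* replicate 2 again lay between the L*er* arrays. It was the gene of the 4 whose L*er* arrays differed most, by 0.82, against 0.17 to 0.22 for the others. Its means were 9.52 ± 1.61 (SD, n = 3) and 11.18 ± 0.58 (SD, n = 2), a difference of -1.65. Leaving out *ask1* replicate 2 gave -2.58, leaving out *ask1* replicate 3 gave -1.08, and L*er* replicate 2 as the only wild type array gave -1.24. In all 4 genes the SD over the *ask1* arrays was at least 1.52, above the difference between the group means for AT2G20670 and below it for the other genes. In bulk buds, fewer cells that express a gene and less RNA per cell cannot be told apart.

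**Figure D1:**
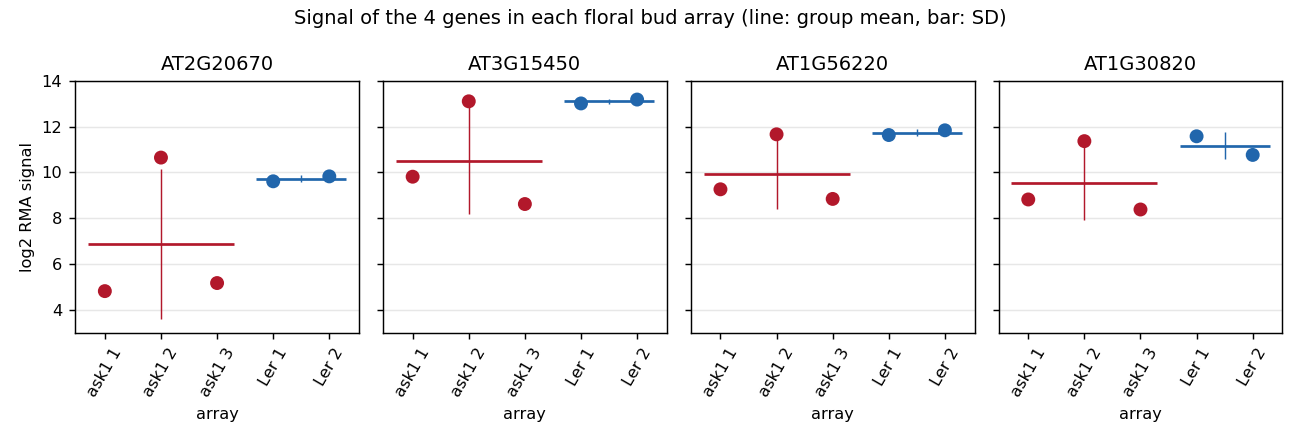
Log2 RMA signal (y axis) of the 4 genes in each array (x axis), with *ask1* in red and L*er* in blue. Horizontal lines are group means and vertical bars 1 SD (n = 3 and n = 2). In each gene *ask1* replicates 1 and 3 lie below the other arrays, and *ask1* replicate 2 lies with or above L*er*.

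The 4 genes therefore shared a split that did not follow genotype. In each, both *ask1* replicates 1 and 3 were at least 2-fold below each of the other 3 arrays, and 104 of 22589 rows (0.46%) had that pattern, 41 of them named genes. A mean at least 2-fold lower in *ask1* was found for the 4 genes and for 0.527% of all rows. Both counts follow from how the genes were picked. *ask1* replicate 2 was above both L*er* arrays in 1 of the 4 genes and in 28.8% of all rows. The gap between the lowest of the 3 high arrays and the higher of the 2 low ones was 4.45 for AT2G20670, 3.21 for AT3G15450, 2.37 for AT1G56220 and 1.95 for AT1G30820. By this gap AT2G20670 stood in place 1 among the named genes, AT3G15450 in place 5, AT1G56220 in place 6 and AT1G30820 in place 9. Among all 22589 rows their places were 2, 9, 16 and 31. These places too follow from how the genes were picked. Pearson correlations between pairs of the 4 genes over the 5 arrays ran from 0.961 (AT2G20670 with AT1G30820) to 0.995 (AT3G15450 with AT1G56220). The points are the same 5 arrays for each pair, and 2 low and 3 high arrays are enough to give such values.

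**Figure D2:**
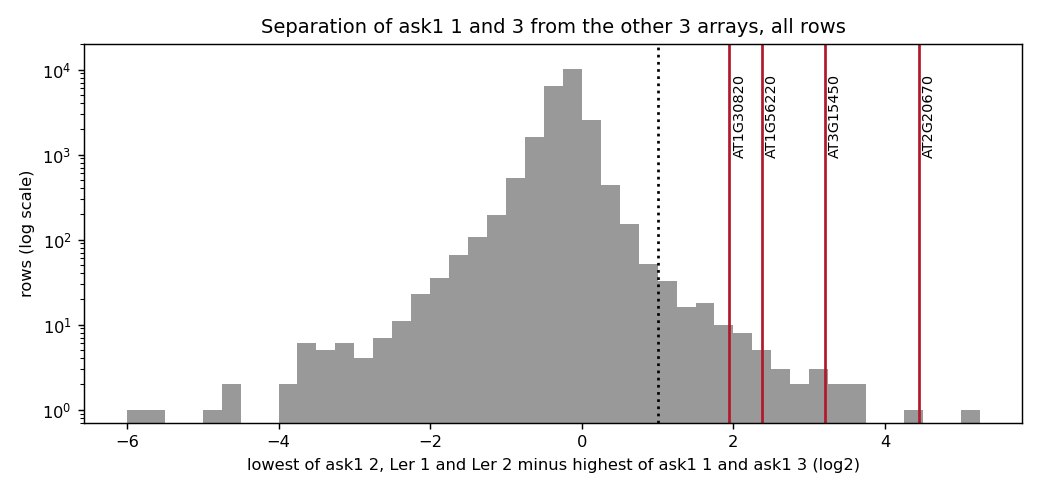
Number of genes and unnamed probe sets (y axis, log scale) by the gap on the log2 scale between the lowest of *ask1* replicate 2 and both L*er* arrays and the higher of *ask1* replicates 1 and 3 (x axis). Red lines mark the 4 genes, from 1.95 to 4.45, and the dotted line a 2-fold gap, which 0.46% of rows reach.

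Relatives of each gene were compared next, to see whether a whole family moved with it. A listed gene counts as measured below if a probe set is named for it alone. Of 22746 probe sets, 8730 carry no gene name, so a gene not counted may still be on the array. In the DUF506 family, 5 of the 10 relatives of AT2G20670 listed were measured, and 2 of them had the same split. Over all rows 0.46% had it. AT2G38820 measured 7.62, 9.54 and 7.64 in *ask1* and 9.07 and 9.17 in L*er*, and AT3G07350 measured 5.79, 7.41 and 5.77 against 7.01 and 7.07. In both, *ask1* replicate 2 was the highest array, as in AT2G20670, but the drop in *ask1* replicates 1 and 3 was smaller, from 2.39-fold to 2.83-fold below the L*er* mean. AT2G39650 went the other way, with 7.75 to 8.20 in the *ask1* arrays above 7.24 and 7.59 in L*er* (adjusted p = 0.555 from limma). AT3G22970 was lower in every *ask1* array by a smaller step, at 7.94, 7.95 and 7.68 against 8.08 and 8.38 (adjusted p = 0.688 from limma). AT1G12030 stayed near background at 4.78 to 4.99. None of the 5 relatives passed the limma test adjusted over all rows, as was so for all but 0.0133% of rows. At an unadjusted p under 0.05, 1 was lower and 1 higher, where 2.97% and 3.98% of all rows were.

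All 4 relatives of AT3G15450 in the family of *AILP1* were measured, and none had a 2-fold split, which 0.46% of all rows had. AT4G27450 came nearest, with 8.43, 11.10 and 8.86 in *ask1* and 10.10 and 9.79 in L*er*. Its *ask1* replicate 2 was 2.23-fold above the L*er* mean, where AT3G15450 itself was level with L*er*. AT5G43830 had the same 2 low and 3 high arrays over a narrower span, at 11.49, 12.46 and 11.33 against 12.05 and 12.02. *AILP1* ranged from 9.62 to 10.51 with the groups overlapping, and AT3G22850 was higher in *ask1* replicates 1 and 3 (8.47 and 8.50) than in *ask1* replicate 2 and L*er* (7.92 to 8.07). In limma, adjusted calls among these 4 numbered 0, and 0 had an unadjusted p under 0.05. Over all rows 0.0133% had adjusted calls, and 2.97% were lower and 3.98% higher at the unadjusted threshold.

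Of the 4 other CTP synthase genes listed, 3 were measured, and none had a 2-fold split (0.46% of all rows had it). AT4G02120 had the same 2 low arrays as AT1G30820, at 7.92, 8.16 and 7.99 against 8.22 and 8.10, but within a range of 0.30. AT2G34890, which lay about the background limit, ranged over 0.27. AT4G20320 measured 10.12, 9.50 and 10.17 in *ask1* and 10.01 and 10.10 in L*er*, with its lowest value in *ask1* replicate 2, the array in which AT1G30820 was high. Of further genes of pyrimidine metabolism, *PYRB*, the aspartate transcarbamoylase of UMP synthesis, ranged over 0.17 and *UPP*, the uracil phosphoribosyltransferase of salvage, over 0.45. In this list of 19 genes, 5 besides AT1G30820 were measured, and by limma 0 passed the adjusted test and 0 an unadjusted p under 0.05. The shares over all rows were 0.0133% adjusted, and 2.97% lower and 3.98% higher unadjusted. The DRM family had 1 measured relative of AT1G56220, AT1G54070, which lay at or just above the background limit, at 4.93 to 5.25. The other listed DRM genes have no probe set named for them alone here. Besides AT1G56220, the paper lists the dormancy associated genes AT2G33830 and AT1G28330 as lower in *ask1*. It also lists as lower *DIN10* (AT5G20250), under light and sucrose, and *SEN1* (AT4G35770), under phosphate starvation. Neither is among the measured genes of the darkness and low-sugar list below. The paper's comparison counts more L*er* arrays than were analysed here.

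Of 39 genes listed as induced by darkness or low sugar, 9 were measured, and 3 of these are AT2G20670, AT3G15450 and AT1G56220. For the other 6 the median difference between the group means was -0.01, as over all rows (-0.01), and this rested on *ask1* replicate 2. Against the L*er* mean, 6 of the 6 were lower in *ask1* replicate 1, 5 in *ask1* replicate 3 and 0 in *ask1* replicate 2. Over all 22589 rows, 11075 were lower in *ask1* replicate 1, 11688 in *ask1* replicate 3 and 12435 in *ask1* replicate 2. Without *ask1* replicate 2 the median difference of the 6 genes was -0.64, against 0.00 over all rows. By limma none of the 6 passed the adjusted test or an unadjusted p under 0.05. Of all rows 0.0133% passed the adjusted test, and 2.97% were lower and 3.98% higher unadjusted. What 5 of the 6 shared was *ask1* replicate 2 above both L*er* arrays, as in 28.8% of all rows. *MCCA*, a subunit of the methylcrotonyl-CoA carboxylase of leucine breakdown, measured 7.31, 10.41 and 7.33 in *ask1* and 8.64 and 8.23 in L*er*. Its signal was thus 3.94-fold above the L*er* mean in *ask1* replicate 2 and lowest in *ask1* replicates 1 and 3. *AKINBETA1*, a beta subunit of SnRK1 itself, measured 7.99, 10.79 and 7.99 against 9.44 and 9.12. It was the 1 gene of the 6 with the 2-fold split, which 0.46% of all rows had. *IVD* and *ETFQO*, whose products act in the oxidation of branched-chain amino acids, were highest in *ask1* replicate 2 (8.01 and 8.53) and lay between 7.29 and 7.90 elsewhere. *ATL8*, a RING-H2 protein gene, measured 6.87, 8.13 and 7.37 against 7.53 and 6.76. *CCL* was the 1 gene of the 6 with a mean at least 2-fold lower in *ask1*, as in 0.527% of all rows. It measured 9.75, 11.11 and 9.25 against 10.56 and 11.60, and its L*er* arrays were themselves 1.04 apart.

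Among the genes of SnRK1 and its bZIP partners, 4 of 14 were measured and the split was found in *AKINBETA1* alone (0.46% of all rows had it). The genes of the other beta subunits, AT4G16360 (KINbeta2) and AT2G28060 (KINbeta3), were flat, with ranges of 0.20 and 0.25 over the 5 arrays. *BZIP53*, a transcription factor of the low-energy response, measured 9.11, 9.83 and 9.13 in *ask1* and 9.85 and 9.72 in L*er*. It had the same order of low and high arrays with a gap of 0.59. In limma, adjusted calls among the 4 numbered 0, and 0 had an unadjusted p under 0.05. The shares over all rows were 0.0133% adjusted, and 2.97% lower and 3.98% higher unadjusted.

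**Figure D3:**
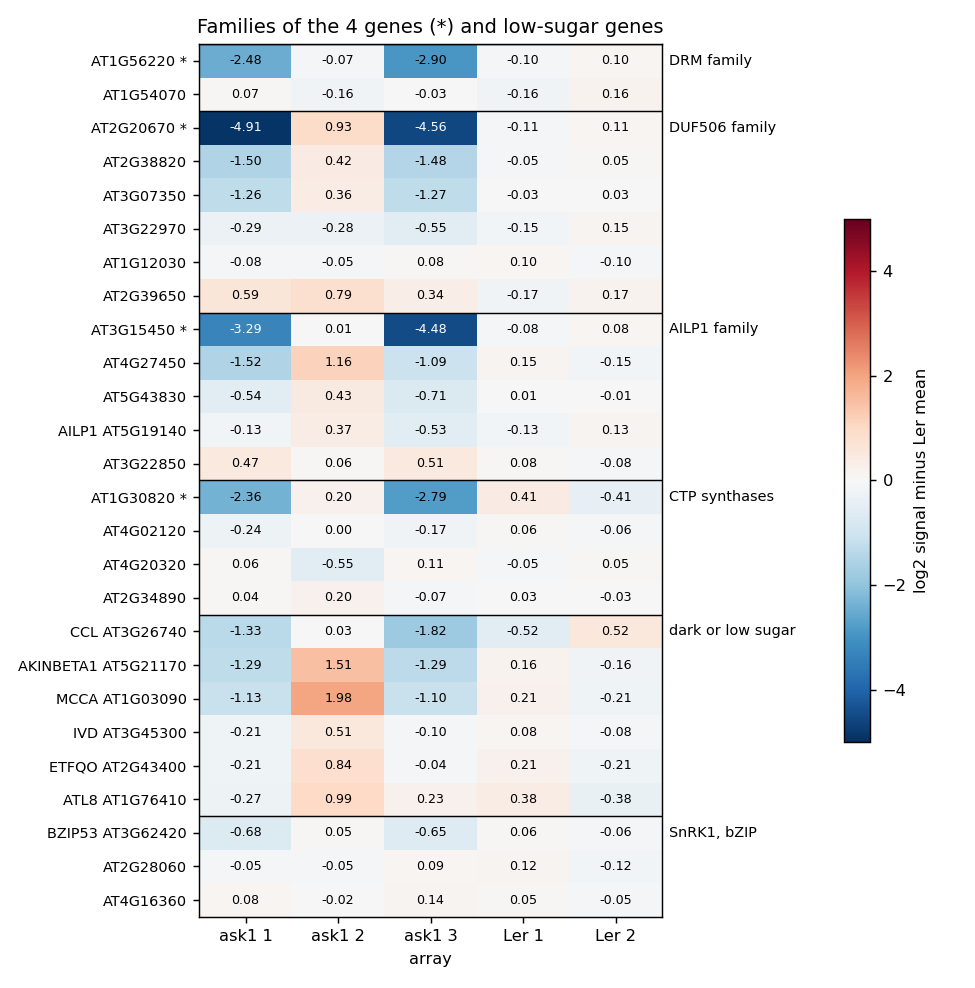
Log2 signal minus the L*er* mean of the gene (colour and printed value) for the 4 genes (asterisks), their measured relatives and the low-sugar and SnRK1 lists (rows) in each array (columns). Blue cells in *ask1* replicates 1 and 3 reach -4.91 in AT2G20670, and the other CTP synthase genes stay between -0.55 and 0.20.

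Genes with the closest profile were then sought among the 118 other named genes whose log2 signal ranged over at least 2. Likeness was the Pearson correlation over the 5 arrays with the mean of the 4 genes, and 27 of the 118 had a value over 0.9. The 10 highest were AT1G23390, AT5G24490, AT3G15630, AT3G07310, AT2G05540, AT3G23880, AT5G61590, AT4G18340, AT5G19120 and *ATG8E*, from 0.996 down to 0.983. AT1G23390, an F-box gene, measured 5.93, 10.23 and 5.60 in *ask1* and 9.41 and 9.58 in L*er*. AT5G19120 was 15.3-fold and 10.4-fold below the L*er* mean in *ask1* replicates 1 and 3, and AT3G15630, a gene of unknown function, measured 8.10, 11.97 and 8.12 against 11.36 and 11.59. In these genes, as in AT2G20670, *ask1* replicate 2 was the highest array. AT5G61590 (DEWAX), a transcription factor that lowers cuticular wax synthesis, measured 7.06, 9.33 and 6.59 against 8.73 and 9.13. AT4G18340, a glycosyl hydrolase gene, measured 5.59, 7.94 and 5.11 against 7.27 and 7.46.

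*ATG8E* encodes an ATG8 protein, which is joined to the membranes of autophagosomes, the vesicles in which starved cells enclose their own contents. It measured 6.90, 8.59 and 6.41 in *ask1* and 8.10 and 8.18 in L*er*, which is 2.37-fold and 3.33-fold below the L*er* mean in *ask1* replicates 1 and 3. The ATG8 genes were looked up after this value was seen. Of the 6 others measured, *ATG8F* had the same 2 low and 3 high arrays within a span of 1.01, at 9.39, 10.35 and 9.34 against 10.10 and 9.87. *ATG8B*, *ATG8C*, *ATG8D*, *ATG8G* and *ATG8H* ranged over 0.17 to 0.45 with the groups overlapping. Adjusted limma calls among the 7 numbered 0, and 0 had an unadjusted p under 0.05. Of all rows 0.0133% had adjusted calls, and 2.97% were lower and 3.98% higher unadjusted.

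**Figure D4:**
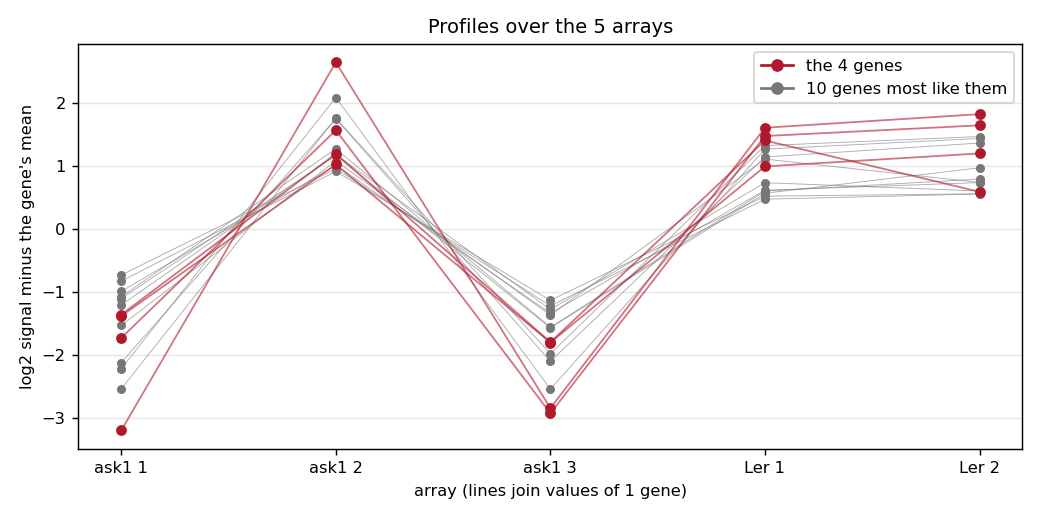
Log2 signal minus the mean of the gene (y axis) in each array (x axis) for the 4 genes (red) and the 10 genes with the highest correlation with their mean (grey). Lines join the values of 1 gene, and all 14 genes lie below their own mean in *ask1* replicates 1 and 3. This follows from how the 4 genes, and then the 10 by their correlation with them, were picked.

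Genes that sugar is known to induce were measured for 3 of 13 listed. *DFR*, the dihydroflavonol reductase gene of anthocyanin synthesis, ran opposite to the 4 genes, at 9.88, 6.73 and 10.34 in *ask1* and 5.83 and 5.99 in L*er* (adjusted p = 0.621 from limma). It was the 1 gene of the 3 with a mean at least 2-fold higher in *ask1*, as in 0.531% of all rows, and the 1 with both *ask1* replicates 1 and 3 at least 2-fold above each other array, as in 0.168% of rows. *APL3* and *APL4*, which encode subunits of the ADP-glucose pyrophosphorylase of starch synthesis, were also highest in *ask1* replicates 1 and 3. *APL3* measured 6.25, 5.63 and 6.54 against 5.54 and 5.97, and *APL4* 7.70 and 8.26 in *ask1* replicates 1 and 3 against at most 7.17 in the other arrays. At an unadjusted limma p under 0.05 only *DFR* of the 3 was higher, as were 3.98% of all rows.

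Next to 2 of the 4 genes on their chromosomes, no neighbour with a named probe set had a 2-fold split (0.46% of all rows had it). In the TAIR10.1 annotation AT3G15450 overlaps AT3G15460, which measured 8.88, 8.48 and 9.09 in *ask1* and 8.71 and 8.53 in L*er*. On its other side AT3G15440 was near background in all arrays, at 4.77 or less. AT1G56210, beside AT1G56220, measured 8.46, 9.03 and 8.54 against 9.04 and 8.79, with *ask1* replicates 1 and 3 again lowest but less than 2-fold below each other array. AT1G56225, which overlaps AT1G56220, and the neighbours of AT2G20670 and AT1G30820 have no named probe set here.

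Markers of other cells were read for the arrays that differ. Of 12 anther and tapetum markers 3 were measured. The tapetum gene *A9* (AT5G07230) measured 8.98, 8.62 and 9.38 in *ask1* and 11.46 and 8.31 in L*er*, *AMS* 4.80, 4.39 and 4.74 against 5.96 and 4.61, and *SPL* 7.73, 7.47 and 8.13 against 8.60 and 7.96. All 3 were highest in L*er* replicate 1, an array in which AT2G20670, AT3G15450 and AT1G56220 were within 0.22 of L*er* replicate 2. AT1G30820 was 0.82 higher in L*er* replicate 1 than in L*er* replicate 2, the direction of these markers. Among the *ask1* arrays the 3 markers were lowest in replicate 2, where the 4 genes were highest. *AMS* was near background in every array but L*er* replicate 1. Of 11 markers of leaf and green tissue 1 was measured, the Rubisco activase gene *RCA*, at 12.27, 12.77 and 12.51 in *ask1* and 12.47 and 12.16 in L*er*. The part of these cell types in the split of the 4 genes was not tested.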

How the data were processed

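RNA of 3 *ask1* and 2 L*er* floral bud samples measured on ATH1 arrays was analysed. The study's methods count 4 L*er* replicates, and the others were not analysed here. The authors normalized the raw array files with RMA and deposited log2 signals per probe set. RMA gives all arrays nearly the same distribution, so a shift of all transcripts would not be seen. Of 22746 probe sets, 13513 had 1 gene in the platform annotation, 503 several and 8730 none. Where a gene had several single-gene probe sets, the one with the highest mean signal stood for it (13356 genes, of which 13286 have a locus in the RefSeq table of TAIR10.1), and other probe sets stayed as rows (22589 in all). Each of the 4 genes has 1 probe set. The *ask1* to L*er* difference was fitted in limma 3.58.1 (R 4.3.3) by lmFit with eBayes, and 2-sided p-values were adjusted by Benjamini-Hochberg over all rows at 0.05. The fit was tested on simulated data. The labels call the samples biological replicates. Precision is limited by how few arrays there are.

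The 4 genes and all lists were chosen with earlier results of these data known. Genes named were the 4, all measured relatives, the 4 lowest and 4 highest of each other list, and the 10 most and 5 least alike among other genes with a log2 range of at least 2. ATG8 and neighbouring genes were added after values were seen. Also tried were array weights, limma-trend, quantile normalization, centring, the methods' t-test, a filter at a mean log2 signal of 5, probe set means, a replicate block, other likeness settings, omission of each array, and, chosen after seeing the data, *ask1* replicates 1 and 3 averaged. No sequences were analysed here.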

Additional observations from a re-analysis of the deposited data

How the results depend on the processing

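The 4 genes kept a lower *ask1* mean under each alternative run for them (centring, quantile normalization, probe set means, the replicate block, *ask1* replicates 1 and 3 averaged, and omission of each array). Their median difference of -2.20 became -3.29 when *ask1* replicate 2 was omitted and -1.46 when *ask1* replicate 3 was, the extremes over the 5 omissions. With the replicate number as a block it was -1.46, as this leaves *ask1* replicate 3 without a partner. Deviations from the group means correlated at -0.26 and -0.01 between arrays of the same number. With 2 L*er* arrays their deviations mirror each other, so these values cannot decide whether samples of the same number were paired. Of the 9 genes of the darkness and low-sugar list, 3 are AT2G20670, AT3G15450 and AT1G56220, chosen on these same arrays. The other 6 had a median difference of -0.01. The median of all 9, -0.36, reversed to 0.11 with the replicate block and to 0.11 with *ask1* replicates 1 and 3 averaged. Over the omissions it lay between -1.29, when *ask1* replicate 2 was left out, and 0.11, when *ask1* replicate 1 or 3 was. It has no settled direction. Over all rows limma made 3 adjusted calls, 2 with the replicate block, 0 with the methods' t-test, 1 after quantile normalization and 0 with *ask1* replicates 1 and 3 averaged. Omission of single arrays gave 0 to 373 calls, the most without *ask1* replicate 2. Of the 10 genes most like the 4, 4 were again among the 10 with a log2 range of at least 1, 7 by Euclidean distance, and 6 to 10 after omission of an array. Signals near background limit the folds of AT2G20670.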

Other observations

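Genes that ran opposite to the 4 genes were read by the same correlation over the 5 arrays, as a description with no test. Of the 118 named genes with a log2 range of at least 2, 12 had a value under -0.9. The 5 lowest were AT1G73600, AT4G14090, *AT5MAT*, AT2G20560 and *CSLA01*, from -0.994 to -0.984. AT1G73600, a methyltransferase gene, was 3.41-fold and 3.98-fold above the L*er* mean in *ask1* replicates 1 and 3. AT4G14090, which encodes an anthocyanidin glucosyltransferase, measured 8.99, 6.60 and 9.76 in the *ask1* arrays against 6.39 and 6.13 in L*er*, and the anthocyanin acyltransferase gene *AT5MAT* 7.58, 5.83 and 7.77 against 5.40 and 5.62. The cellulose synthase-like gene *CSLA01* measured 8.54, 6.60 and 9.38 against 6.89 and 6.59, and AT2G20560 6.64, 5.28 and 7.31 against 5.29 and 5.31. In each of them *ask1* replicate 2 lay within 0.34 of the L*er* mean on the log2 scale.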
